A study of Mus musculus with 115 samples.

Results

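The Hox genes of all 4 mouse clusters were followed through the prostate transcriptomes of (TRAMP x WSB) F2 males. Members were all 39 protein-coding genes of the mouse annotation (GENCODE M21, genome build GRCm38) whose name is Hoxa, Hoxb, Hoxc or Hoxd and a number, among the 45699 genes listed. HoxA holds 11 of them, HoxB 10, HoxC 9 and HoxD 9. This rule reads gene names only. RNA had been depleted of ribosomal RNA and sequenced from prostates that were each labelled with their own mouse, all in 1 group of transgene-positive males. Their libraries fall into 79 and 36 by expression, as described below, and values over all libraries are over both together. The mice descend from C57BL/6J TRAMP females and males of WSB/EiJ, a wild-derived inbred strain, and so carried a mixture of both genomes. Only transgene-positive F2 males were used, so every mouse carried the TRAMP transgene. The transgene places SV40 T antigen under the androgen-responsive probasin promoter, which is active in prostate epithelium, and the resulting tumors can take on neuroendocrine features. Mice were kept to a common endpoint or to a humane endpoint, and the age and tumor burden of single mice were not used here. From small prostates only the ventral lobe had been taken, and mice without the transgene were not analysed here, so no healthy prostate stands beside these values. Levels are given in TPM, which corrects for transcript length and sums to the same total in each library. TPM allows genes to be compared with each other but keeps no depth. The study states a minimum depth for its libraries, but the depth of each library, and so the counting error of a value, is unknown.

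Hox genes encode homeodomain transcription factors that give cells their position along the body axis. In mammals they lie in 4 clusters that arose by duplication, and genes of the same number in different clusters are paralogs. Within a cluster they are numbered from 1 at the 3′ end to 13 at the 5′ end, and the order on the chromosome follows the order in which they act from head to tail. The genes of paralog groups 9 to 13 pattern the most caudal structures, among them the urogenital sinus from which the prostate grows. Hoxb13 remains active in the adult prostate epithelium, where its protein works together with the androgen receptor, and Hoxa10, Hoxa13 and Hoxd13 are needed for the normal form of the male accessory glands.

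Expression separated the libraries into 79 and 36 along the first principal component, which was computed from 14603 genes without the Hox genes and the 4 markers used below and held 48.6% of the variance. The markers were Chga (chromogranin A, a neuroendocrine gene), Mki67 (a gene of dividing cells), Tgm4 (a transglutaminase secreted by prostate luminal cells) and Col1a1 (a collagen of stromal fibroblasts). Among the 79 libraries the median was 0.3 TPM for Chga, 4.23 TPM for Mki67, 7050 TPM for Tgm4 and 11.4 TPM for Col1a1. Among the 36 libraries the median was 57.2 TPM for Chga, 83.5 TPM for Mki67, 1.83 TPM for Tgm4 and 23.2 TPM for Col1a1. The 79 and the 36 were not tested against each other, since they were formed from the data. The 20 genes with the largest share took between 48.9% and 81.8% of the TPM of a library, which lowers the TPM of all others. Foxa1, a transcription factor of luminal cells, had a median of 12.9 TPM over all libraries. This median does not give the identity of the tissue in each library.

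Some libraries stood apart in the Hox genes themselves and were noticed after the values were seen. W1154, among the 79, had 0.02 TPM of Hoxb13 and 0.64 TPM of Tgm4. It had no HoxA gene above 0.04 TPM, but 3.15 TPM of Hoxd8 and 2.14 TPM of Hoxd10. Among the 36, the libraries W1118, W1050, W1915 and W1790 were low in Chga, from 0.15 to 2.55 TPM, and had 0.05, 0.15, 0.07 and 0.04 TPM of Hoxb13. The same 4 libraries had between 112.02 and 308 TPM of Col1a1, and their Foxa1 lay between 0.05 and 0.22 TPM. W1065, also among the 36, had the highest Chga of all libraries at 479 TPM and the highest levels of Hoxb2 to Hoxb9, with 66.5 TPM of Hoxb9, but 5.57 TPM of Hoxb13. Results that rest on W1154 or on the 4 libraries low in Chga are given with and without them, and for W1065 this was done for only some results.

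Among the pairs of Hox genes whose levels are set against each other below are neighbours within HoxA (Hoxa9 and Hoxa10), neighbours within HoxD (Hoxd4 and Hoxd8) and a paralog pair of different clusters (Hoxa13 and Hoxd13). The 250 bases before the start of each are shown as examples of these 3 kinds of pair, from RefSeq on GRCm38.p6 and in the direction of transcription. Capitals mark the TATA box TATAAA, the CCAAT box and, as a sequence that posterior Hox proteins bind, TTTATNG, each on either strand. Marks that overlap run together. The regions are chr6:52227371-52227620 for Hoxa9, chr6:52234940-52235189 for 1 of the 2 listed starts of Hoxa10, chr2:74721728-74721977 for Hoxd4, chr2:74704365-74704614 for Hoxd8, chr6:52260881-52261130 for Hoxa13 and chr2:74667975-74668224 for Hoxd13. The HoxA genes lie on the minus strand and the HoxD genes on the plus strand, and none of these windows overlapped an annotated exon.
Hoxa9: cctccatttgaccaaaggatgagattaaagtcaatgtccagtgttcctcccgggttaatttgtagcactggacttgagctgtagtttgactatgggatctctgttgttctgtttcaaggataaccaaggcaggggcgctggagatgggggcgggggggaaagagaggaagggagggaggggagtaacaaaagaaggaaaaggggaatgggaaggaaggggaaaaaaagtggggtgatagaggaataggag
Hoxa10: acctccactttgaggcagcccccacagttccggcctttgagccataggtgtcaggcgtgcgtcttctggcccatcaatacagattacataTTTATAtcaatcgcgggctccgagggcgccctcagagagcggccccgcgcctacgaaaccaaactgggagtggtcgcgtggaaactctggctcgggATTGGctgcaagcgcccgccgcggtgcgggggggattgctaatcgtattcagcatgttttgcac
Hoxd4: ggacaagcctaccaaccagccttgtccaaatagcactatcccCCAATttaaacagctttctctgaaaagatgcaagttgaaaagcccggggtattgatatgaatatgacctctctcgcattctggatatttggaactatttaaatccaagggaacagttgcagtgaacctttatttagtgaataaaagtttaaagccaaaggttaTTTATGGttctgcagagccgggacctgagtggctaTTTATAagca
Hoxd8: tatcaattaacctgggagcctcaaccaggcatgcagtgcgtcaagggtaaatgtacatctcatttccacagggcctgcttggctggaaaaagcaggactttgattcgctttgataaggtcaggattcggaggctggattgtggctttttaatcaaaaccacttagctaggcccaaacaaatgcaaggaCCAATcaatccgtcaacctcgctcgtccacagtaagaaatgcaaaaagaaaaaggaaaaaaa
Hoxa13: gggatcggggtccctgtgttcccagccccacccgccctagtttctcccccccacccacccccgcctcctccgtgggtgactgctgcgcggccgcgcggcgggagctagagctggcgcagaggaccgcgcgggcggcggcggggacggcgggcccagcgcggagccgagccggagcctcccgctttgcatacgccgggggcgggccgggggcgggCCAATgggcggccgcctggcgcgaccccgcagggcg
Hoxd13: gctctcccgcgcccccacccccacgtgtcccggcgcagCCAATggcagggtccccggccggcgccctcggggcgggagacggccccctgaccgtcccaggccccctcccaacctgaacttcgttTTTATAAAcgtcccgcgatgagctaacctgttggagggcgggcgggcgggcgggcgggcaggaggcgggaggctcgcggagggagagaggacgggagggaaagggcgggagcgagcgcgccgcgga
The Hoxa13 and Hoxd13 windows held 35 and 31 CG pairs, and the Hoxa9 and Hoxd4 windows 3 each. The window of Hoxa10 held 20 and that of Hoxd8 held 6, while the median over 32851 promoters of this length was 6. Over 24 windows of 22 Hox genes in the reference the median was 12.5. TATAAA was found in 4 of these 24 against 12.4% of all promoters, CCAAT in 14 of 24 against 33.9%, and TTTATNG in 2 of 24 against 9.81%. These are matches of letters and not binding sites.

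Over all libraries together, Hox expression came mainly from posterior genes of HoxB and HoxA, with Hoxb13 above all others by its median. In HoxD the middle gene Hoxd8 had the highest median over all libraries. In total 12 of the 39 genes reached 1 TPM in at least 50% of libraries, against 53.1% of the 21515 protein-coding genes. These were 5 of HoxA, 4 of HoxB, 3 of HoxD and 0 of HoxC. The number of Hox genes at 1 TPM or more ranged from 3 to 26 per library, with a median of 12. Paralog groups 9 to 13 held a median of 80.04% of the summed Hox TPM, from 20.2% to 97.7% between libraries, and Hoxb13 alone held a median of 45.8%. The median share of groups 9 to 13 was 87.5% among the 79 and 63.9% among the 36. In bulk tissue, fewer cells that express a gene and less RNA per cell cannot be told apart.

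**Figure D1:**
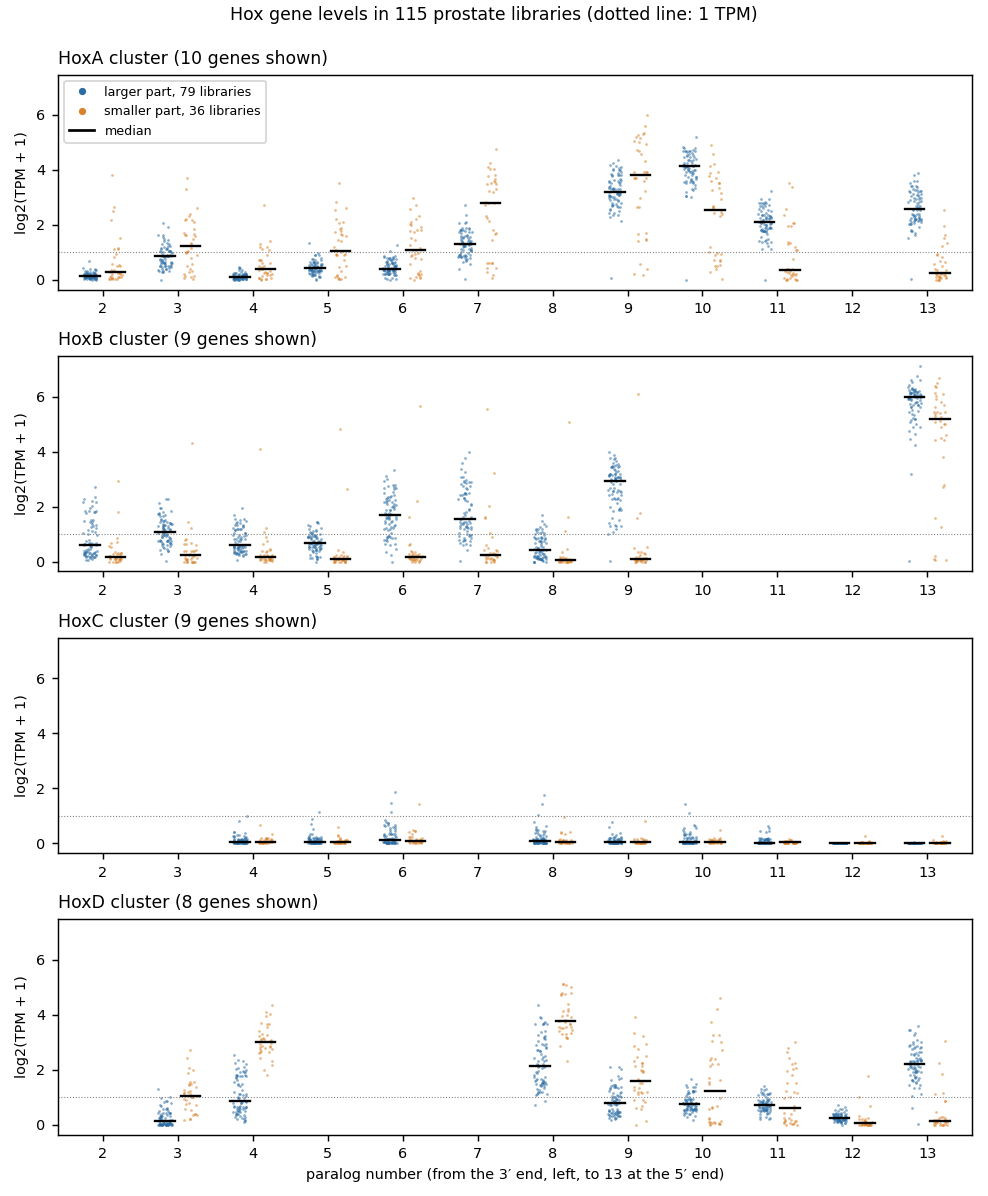
Levels of the Hox genes of paralog groups 2 to 13 by cluster (panels) and paralog number (horizontal axis), on the log2(TPM + 1) scale. Each point is a library, blue for the 79 and orange for the 36, black lines are medians and the dotted line marks 1 TPM. Hoxb13 has the highest median (55.2 TPM over all libraries), and the HoxC genes lie near 0.

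The HoxB cluster (chromosome 11, 96194316 to 96368256, plus strand) carried the largest sum, with a lowest value of 0.15, a median of 68.2 and a highest value of 269.9 TPM. Hoxb13 (96194316 to 96197447), the partner of the androgen receptor named above, ranged from 0.02 to 137.5 TPM with a median of 55.2 TPM. It was the highest Hox gene in 78 of the 79 libraries and in 23 of the 36. In the 79 libraries Hoxb13 had a median of 62.3 TPM and, without W1154, no value under 8.04 TPM. Among the 36 its median was 35.7 TPM, and without the 4 libraries low in Chga its lowest value was 1.37 TPM. The gap between Hoxb13 and its cluster neighbours was wide. Hoxb9 (96271457 to 96276595), the next posterior gene of HoxB, ranged from 0 to 66.5 TPM with a median of 3.96 TPM. Its level was split between the libraries, with a median of 6.6 TPM among the 79 and of 0.065 TPM among the 36, where W1065 held the highest value. Hoxb6 and Hoxb7, genes of the middle of the cluster, had medians of 1.45 and 1.42 TPM and reached 50.02 and 46.4 TPM, again in W1065. The other 6 HoxB genes had medians between 0 and 0.76 TPM, the highest of these in Hoxb3. The largest single value among them was 32.3 TPM for Hoxb8 in W1065, and Hoxb1 never reached 1 TPM.

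The HoxA cluster (chromosome 6, minus strand) summed to a median of 35.4 TPM, from 0.14 to 101.6 TPM. Hoxa10 (52231197 to 52240854), which takes part in forming the reproductive tract, ranged from 0 to 35.9 TPM with a median of 14.03 TPM, and Hoxa9 (52223100 to 52231089), its neighbour and a regulator of blood progenitors, from 0.04 to 63.3 TPM with a median of 8.99 TPM. Among the 79 libraries the Hoxa10 median was 16.5 TPM and the Hoxa9 median 8.26 TPM. Among the 36 they were 4.85 TPM for Hoxa10 and 13.1 TPM for Hoxa9, the reverse order. Hoxa9 was the highest Hox gene in 9 of the 14 libraries in which Hoxb13 was not, Hoxd8 in 3, and Hoxa7 and Hoxb9 in 1 each. The most 5′ genes Hoxa11 and Hoxa13, which pattern distal limb and urogenital tract, had medians of 2.84 and 3.67 TPM over all libraries. Hoxa13 separated the libraries widely, with a median of 5 TPM among the 79 (from 1.9 TPM upward without W1154) and of 0.185 TPM among the 36, although both ranges overlapped. Hoxa7, in the middle of the cluster, had a median of 1.68 TPM, 1.46 TPM among the 79 and 5.9 TPM among the 36. Toward the 3′ end, single values reached 13.03 TPM for Hoxa2 and 11.99 TPM for Hoxa3.

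In the HoxD cluster (chromosome 2, 74668310 to 74765142, plus strand) the sums ran from 1.89 to 94.1 TPM with a median of 15.5 TPM. Hoxd8 (74704615 to 74707933), a gene of the middle of the cluster, was the most evenly present Hox gene. It was listed at 0 in no library, and it ranged from 0.66 to 33.9 TPM with a median of 5.85 TPM. Its median was 3.37 TPM among the 79 and 12.5 TPM among the 36. Hoxd4, an anterior gene, had a median of 2.24 TPM, 0.83 TPM among the 79 and 7.07 TPM among the 36. Hoxd13, at the 5′ end, showed the other order, with a median of 3.66 TPM among the 79 and 0.095 TPM among the 36. Hoxd10, a gene of the posterior group, had a median of 0.69 TPM and its highest value of 23.1 TPM in W1050. In the 4 libraries low in Chga it stood at 17.5 TPM (W1118), 23.1 TPM (W1050), 4.19 TPM (W1915) and 12.5 TPM (W1790), against a highest value of 8.66 TPM in the other 32. Hoxd9 had a median of 0.95 TPM and Hoxd11 of 0.63 TPM, and the remaining HoxD genes stayed below them. In W1154, where the HoxA genes and Hoxb13 were near 0, Hoxd4 stood at 1.65 TPM and Hoxd9 at 1.24 TPM beside the Hoxd8 and Hoxd10 values given above.

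HoxC (chromosome 15, 102921103 to 103036852, plus strand) lay near 0. Its sum had a median of 0.28 TPM and a highest value of 9.89 TPM, and no HoxC gene had a median above 0.07 TPM. Hoxc6 had the highest single value at 2.65 TPM, followed by Hoxc8 at 2.35 TPM, Hoxc10 at 1.68 TPM and Hoxc5 at 1.22 TPM. Hoxc4, Hoxc9, Hoxc11, Hoxc12 and Hoxc13 did not reach 1 TPM in any library. In all, 33 of the 39 Hox genes were listed at 0 TPM in at least 1 library. The range of each detected Hox gene, Hoxb13 included, overlapped that of the next in the order of medians.

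**Figure D2:**
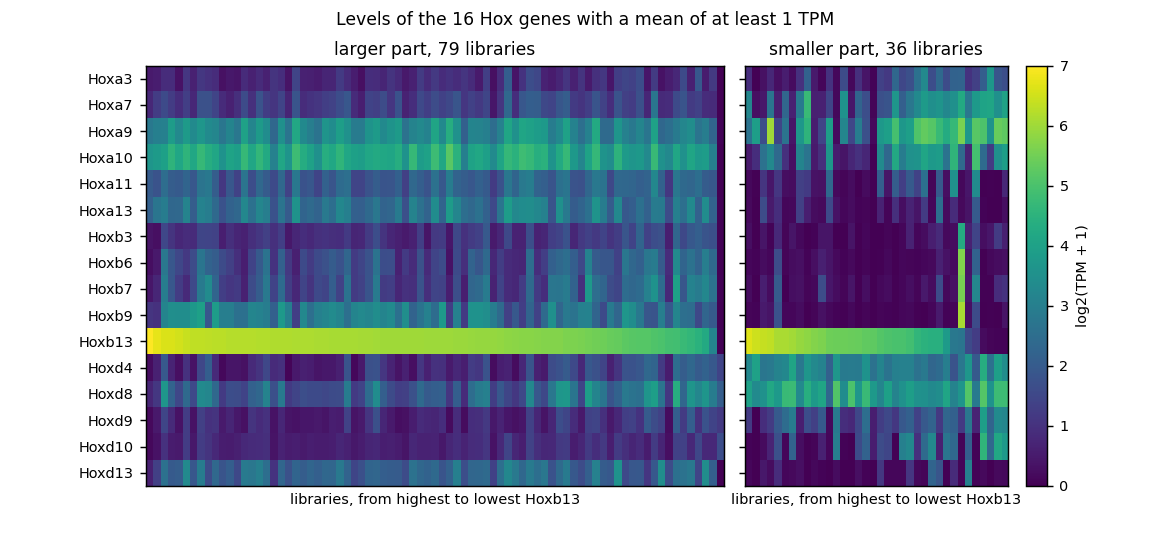
Level of each of the 16 Hox genes whose mean reached 1 TPM (rows, by cluster and number) in each library (columns), as colour on the log2(TPM + 1) scale. Libraries run from the highest to the lowest Hoxb13 within the 79 (left) and the 36 (right). W1154 is the last column on the left, and the 4 libraries low in Chga are the last 4 on the right.

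The members were next set against the 4 markers, to see with which cell signals Hox levels moved. The 16 members whose mean reached 1 TPM entered this step (Hoxa3, Hoxa7, Hoxa9, Hoxa10, Hoxa11, Hoxa13, Hoxb3, Hoxb6, Hoxb7, Hoxb9, Hoxb13, Hoxd4, Hoxd8, Hoxd9, Hoxd10 and Hoxd13), and the other 23, with all of HoxC, did not. Pearson's r of log2(TPM + 1) was tested with 100000 permutations within the 79 and within the 36 for every gene of this mean, and p-values were adjusted by the Benjamini-Hochberg method over all genes tested, with 0.05 as the threshold. The smallest p the permutations can give is 1e-05.

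Among the 79 libraries, Hoxb9 and Hoxb13 rose with Tgm4, the secretory gene. Tgm4 itself separated into 20 libraries of up to 2469 TPM and 59 of 2901 TPM or more, so r is given within these. Within the 59 libraries, Hoxb9 had r = 0.75 with Tgm4 (adjusted p = 0.000155, permutation test). Spearman's rho was 0.69 (permutation p = 1e-05), and r was 0.70 after 2 libraries, those farthest from the Tgm4 median, were left out. For Hoxb13 in these 59 libraries r was 0.61 with the same adjusted permutation p of 0.000155, with rho = 0.61 (p = 1e-05) and r = 0.63 without the farthest 2. Both genes thus ran with Tgm4 along its upper range, as the plot of single libraries shows. Hoxd4 fell as Tgm4 rose in these libraries (r = -0.34, adjusted permutation p = 0.0313), with rho = -0.36 (p = 0.00499) and r = -0.41 without the farthest 2. These 3 of 16 members compare with 35.9% of all genes that passed in the 59 libraries. Within the 20 libraries of lower Tgm4, which include W1154, 0 of 16 members passed the permutation test after adjustment, where 0.123% of all genes passed. Before adjustment 5 members had a p under 0.05, and the share of all genes at that unadjusted p was not computed. There Hoxb9 had r = 0.50 (adjusted permutation p = 0.491) and 0.22 without the farthest 2, and Hoxd13 r = 0.64 (adjusted p = 0.275) and 0.51 without them. Over all 79 libraries together 6 members passed, 4 with positive and 2 with negative r, against 38.8% of all genes, and without W1154 the split was 2 and 4, against 55.3%. Under median-of-ratios scaling and under rescaling without the 20 most abundant genes, the r of Hoxb9 and Hoxb13 with Tgm4 stayed positive.

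Posterior HoxA genes and Hoxd13 went with Mki67, the gene of dividing cells, in TPM as deposited. Of the 16 members 7 passed in the 79 libraries, 6 with positive and 1 with negative r, but 74.2% of all genes passed too, 72.8% with positive and 1.4% with negative r, and the median r over all genes was 0.43. Under median-of-ratios scaling 7 members passed, all with negative r (20.1% of all genes), and under rescaling without the 20 most abundant genes 1 had positive and 4 negative r (41.7%), while the median r over all genes fell to -0.02 and 0.11. The signs of the next values are therefore those of deposited TPM. Hoxa13 had the highest r at 0.59 (adjusted permutation p = 2.33e-05), with rho = 0.65 (p = 1e-05) and r = 0.56 without the farthest 2, and under the other scalings r was 0.24 and 0.32. Hoxa9 and Hoxa10 followed with r = 0.50 and 0.49 (adjusted permutation p = 2.33e-05 for both), with rho of 0.57 and 0.65 (p = 1e-05 for both) and r of 0.47 and 0.46 without the farthest 2. Under median-of-ratios scaling they were at 0.11 and 0.09, positive still. Hoxa11 and Hoxa7 were lower at 0.37 and 0.29, and turned negative under median-of-ratios scaling (-0.15 and -0.18). Hoxb9 moved the other way from the HoxA genes, with r = -0.30 (adjusted permutation p = 0.0119), rho = -0.35 (p = 0.00146) and -0.25 without the farthest 2. It was negative under both scalings, at -0.41 and -0.37. Without W1154 the values of Hoxa10 and Hoxa13 were 0.67 and 0.66.

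With Col1a1, the collagen of fibroblasts, 12 of 16 members passed among the 79 libraries, 10 with positive and 2 with negative r. The background was 56.1% of all genes. The HoxD genes led this group. Hoxd10 had r = 0.48 (adjusted permutation p = 0.000198), with rho = 0.53 (p = 1e-05) and 0.46 without the farthest 2. Hoxd4 had r = 0.45 (adjusted permutation p = 0.000143), with rho = 0.41 (p = 0.00019) and 0.40 without them, and Hoxb3, an anterior HoxB gene, r = 0.44 (adjusted permutation p = 0.00025), with rho = 0.39 (p = 0.00042) and 0.34. In each of these r was positive under both other scalings, from 0.29 to 0.42. Hoxb13 and Hoxb9, the genes that rose with Tgm4, were the members that fell with rising Col1a1. Hoxb13 had r = -0.37 (adjusted permutation p = 0.0227), rho = -0.27 (p = 0.0154) and -0.29 without the farthest 2, and Hoxb9 had r = -0.29 (adjusted permutation p = 0.0194), rho = -0.27 (p = 0.0147) and -0.25. Hoxa13 was the weakest of those that passed, at r = 0.26 (adjusted permutation p = 0.0397, rho = 0.45 with p = 4e-05), and its sign turned under median-of-ratios scaling (-0.09). Under median-of-ratios scaling 5 members passed with positive and 4 with negative r, against 40.8% of all genes.

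**Figure D3:**
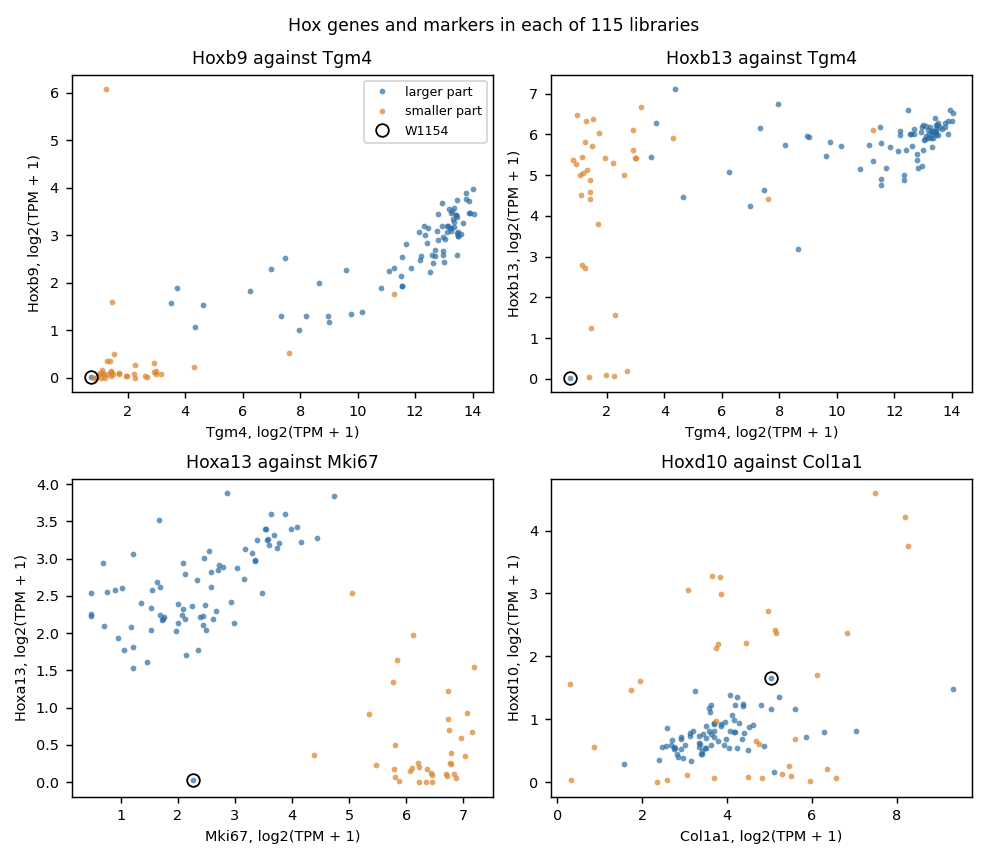
Hoxb9 and Hoxb13 against Tgm4, Hoxa13 against Mki67 and Hoxd10 against Col1a1, 1 point per library, both axes on the log2(TPM + 1) scale. Blue points are the 79 libraries, orange points the 36 and the ring is W1154. Hoxb9 climbs with Tgm4 along the blue points (r = 0.75 in the 59 libraries of higher Tgm4), and the highest Hoxd10 values are orange (23.1 TPM in W1050).

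Against Chga, the neuroendocrine gene, the Hox genes gave little among the 79 libraries. Chga separated there into 72 libraries of up to 0.81 TPM and 7 of 1.19 TPM or more. In the 72 libraries 0 of 16 members passed the permutation test after adjustment and 1 had an unadjusted p under 0.05, with 1.14% of all genes passing. In the 7 libraries 0 of 16 passed after adjustment, as did 0% of all genes, and again 1 member had an unadjusted p under 0.05. Over the 79 together 3 members passed with positive r, Hoxa7, Hoxa11 and Hoxa3, against 17.4% of all genes. In the 72 libraries r was 0.20 for Hoxa7, 0.30 for Hoxa11 and 0.21 for Hoxa3.

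**Figure D4:**
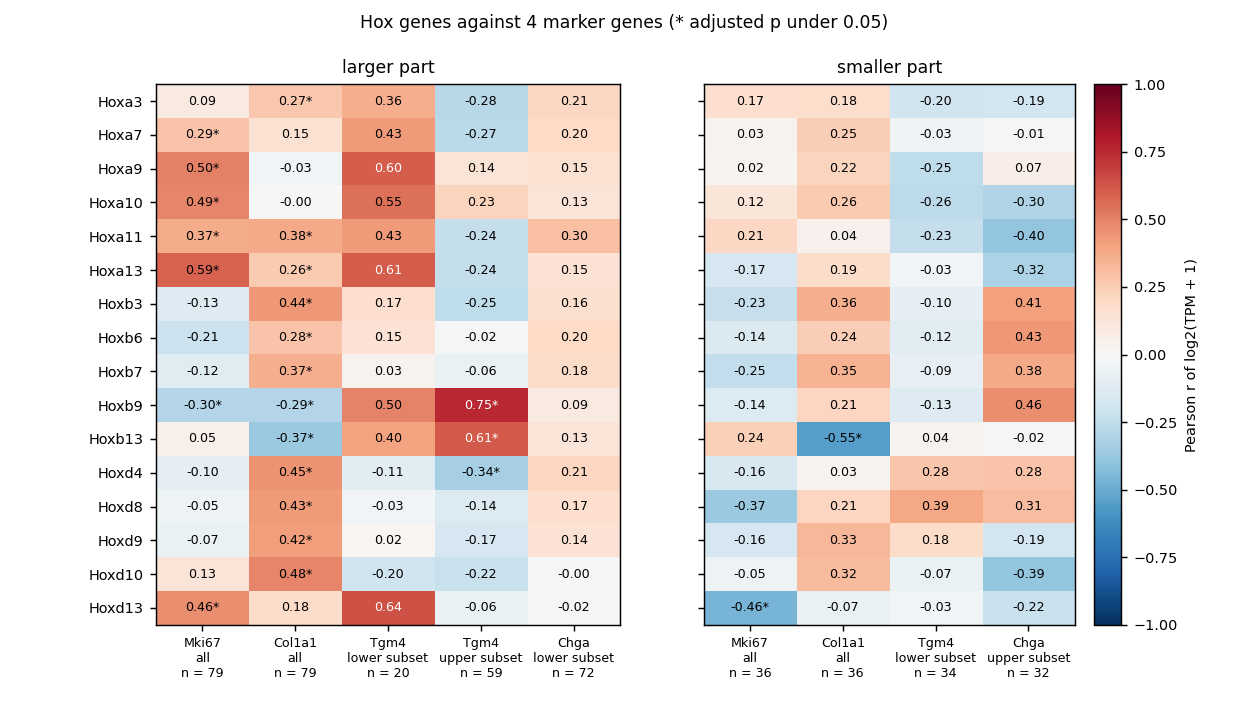
Pearson's r (number and colour) of the 16 tested Hox genes (rows) with Mki67, Col1a1, Tgm4 and Chga (columns) in the larger part (left, 79 libraries) and the smaller part (right, 36). For Tgm4 and Chga the columns give r within the libraries of lower or higher marker level, and an asterisk marks an adjusted p under 0.05. The highest value is Hoxb9 against Tgm4 (0.75, n = 59), and Col1a1 in the larger part shows positive r for Hoxd4, Hoxd8, Hoxd9 and Hoxd10 with negative r for Hoxb9 and Hoxb13.

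Among the 36 libraries, rich in Chga and Mki67, the members that passed were 4 with Chga, 1 with Col1a1 and 1 with Mki67. Chga separated into the 4 libraries low in Chga and 32 of 21.1 TPM or more, and the relations over all 36 rested on those 4. Together 4 members passed, Hoxb13 with positive and Hoxd10, Hoxd9 and Hoxa3 with negative r, against 33.4% of all genes. In the 32 libraries 0 of 16 passed the permutation test after adjustment, 6 had an unadjusted p under 0.05, and 9.53% of all genes passed. Hoxb13 had r = -0.02 there and Hoxd10 r = -0.39 (adjusted permutation p = 0.129, rho = -0.39 with p = 0.0259). The positive r of Hoxb9 with Chga in the 32, 0.46, was 0.03 without the 2 libraries farthest from the Chga median, 1 of which is W1065. With Col1a1, only Hoxb13 passed of 16 members, against 58.5% of all genes, at r = -0.55 (adjusted permutation p = 0.00183). Its rho was -0.27 (p = 0.109), and without the 4 libraries low in Chga r was -0.17. With Mki67, 1 member passed against 44.2% of all genes, Hoxd13 at r = -0.46 (adjusted permutation p = 0.0209). That value rested on the libraries W370 and W4419, since without them r was 0.04. With Tgm4, 0 of 16 members passed the permutation test after adjustment, 1 had an unadjusted p under 0.05, and 0.0821% of all genes passed. Tgm4 separated there into 34 and 2 libraries, and within the 34 again 0 passed after adjustment, where 0.0274% of all genes passed. Before adjustment 1 member had a p under 0.05 in the 34.

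The Hox genes were also set against signals of other cell types, whose part in these results was not tested. Summed levels of marker lists were used in the same test among the 79 libraries. For the smooth muscle list (5 genes) the sum ranged from 73.7 to 2690 TPM, and all 16 members had positive r that passed, against 77.7% of all genes. The lowest sum was that of W1154, and without this library 13 members passed, all with positive r. For the neuroendocrine list (8 genes, sums of 1.3 to 48.6 TPM) 14 passed against 75.7%, for the fibroblast list (6 genes, sums of 69.6 to 5669 TPM) 14 against 76.5%, and for the endothelial list (4 genes, sums of 4.64 to 76.9 TPM) 13 against 79.3%. Without W1154 these were 16 (14 with positive and 2 with negative r), 14 and 12. Immune, urothelial and proliferation lists gave 9 of 16 against 79.5%, 8 against 77.1% and 6 against 70.3%. Over the 79 libraries each was a smaller share than that of all genes. Without W1154 these were 13, 8 and 6, and the median r with the immune list was 0.34 over members and 0.50 over all genes. For all lists named so far, the share of all genes without W1154 is not given, so those counts stand without a background. For seminal vesicle secretory genes, which ranged from 1.92 to 173260 TPM in sum, 6 members passed with positive r against 1.85% of all genes. The basal list gave 3 against 5.77%. The prostate luminal list without Hoxb13 gave 4, 2 in each direction, against 23.9%, and without W1154 it gave 12, 2 with positive and 10 with negative r, against 52.5%. Among the 36 libraries 11 of 160 such relations passed in all, 5 with positive and 6 with negative r, against 34.8% over the same lists.

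By median r, Hox genes of 1 cluster varied together more than those of different clusters, and neighbours most of all. Of the 120 pairs of tested members, within and between clusters, 76 passed in the 79 libraries, 72 with positive and 4 with negative r. This is not far above the 54.5% of all pairs of a Hox gene with any gene. The median r was 0.82 over 9 pairs of neighbours, 0.61 over 35 pairs within a cluster, 0.25 over 85 pairs of different clusters and 0.19 over the 9 of these in the same paralog group. These medians are descriptions, since the pairs share genes and libraries, and no median over pairs with other genes stands beside them. Single genes outside the clusters came as close, such as Arvcf with r = 0.90 to Hoxa9 among the 79. Among the 36 libraries 23 of 120 pairs passed, 18 with positive and 5 with negative r, against 1.99%. There the medians were 0.76 for neighbours, 0.55 within a cluster and -0.03 between clusters.

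The closest pair was Hoxb6 and Hoxb7, neighbours in the middle of HoxB, with r = 0.94 among the 79 libraries (adjusted permutation p = 4.14e-05), rho = 0.95, and an r of 0.94 once the 2 libraries farthest from the Hoxb6 median were left out. Hoxa9 and Hoxa10 had r = 0.94 too, rho = 0.92 and 0.92 without the farthest 2, with the same adjusted permutation p. In the 36 libraries r was 0.96 for Hoxb6 with Hoxb7 (rho = 0.82, and 0.85 without the farthest 2) and 0.76 for Hoxa9 with Hoxa10. Both neighbour pairs therefore held in either set of libraries. In HoxD, Hoxd8 had r = 0.92 with Hoxd9 and 0.92 with Hoxd4 among the 79, and 0.70 and 0.72 among the 36, where without the 4 libraries low in Chga r was 0.63 and 0.65 and neither passed (adjusted permutation p = 0.118 and 0.0949). Hoxb7 and Hoxd8, genes of different clusters and paralog groups, had r = 0.92 among the 79 libraries (rho = 0.90) but -0.14 among the 36 (rho = 0.004), a difference that was not tested. The paralogs Hoxa13 and Hoxd13, whose promoters are shown above, had r = 0.76 (rho = 0.77, and 0.69 without the farthest 2) among the 79 and 0.23 among the 36.

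Hoxb13 did not follow its cluster. With Hoxb9, its nearest Hox neighbour, it had r = 0.40 among the 79 libraries and 0.20 without W1154. With Hoxd10 and Hoxd4 its r was -0.46 and -0.43 there, and with Hoxd10 it was -0.57 among the 36, but -0.23 without the 4 libraries low in Chga (adjusted permutation p = 0.768). Hoxb9 stood between the posterior and middle genes, with r = 0.45 to Hoxb6 among the 79. Among the 36 the same pair had r = 0.99, which was 0.94 without W1065, with rho = 0.71. The lowest r among the 36 was that of Hoxa11 with Hoxd8 at -0.59 (adjusted permutation p = 0.0187, and 0.163 without the 4 libraries low in Chga; rho = -0.48). Without W1154 65 pairs passed with positive and 11 with negative r among the 79, against 53.9%, and without the 4 libraries low in Chga 13 passed among the 36, all with positive r, against 0.0265%.

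**Figure D5:**
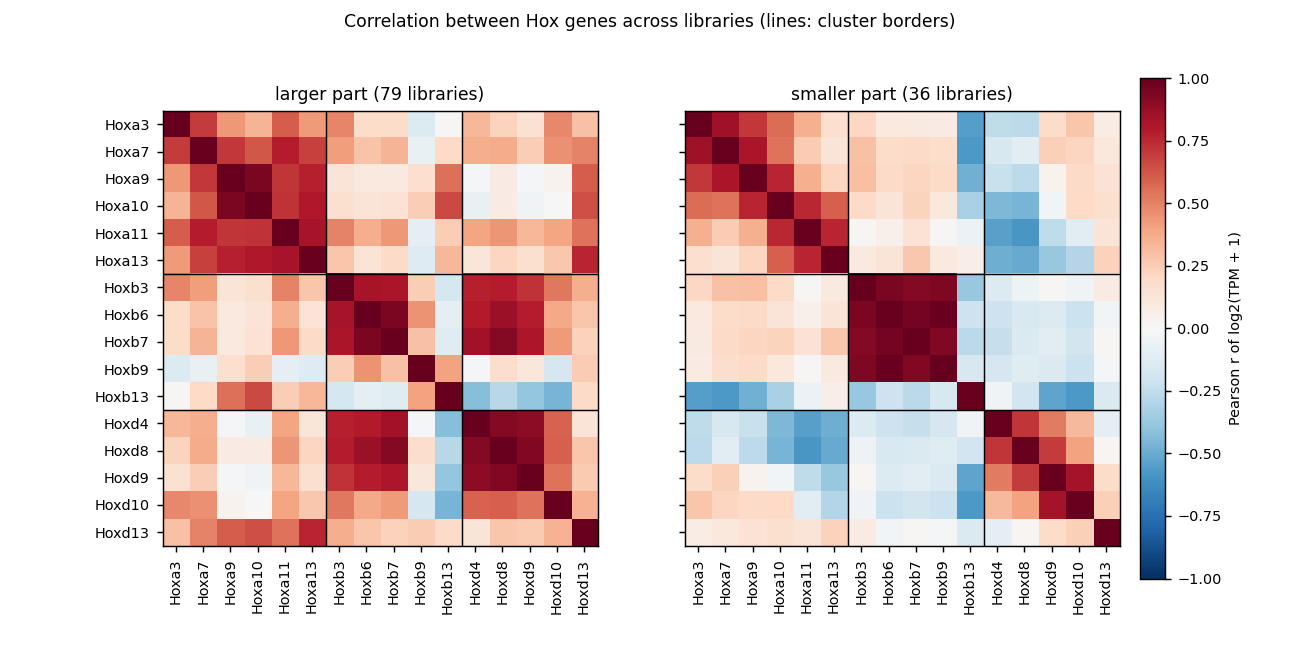
Pearson's r between the 16 tested Hox genes (colour, rows and columns in cluster order, lines at cluster borders) among the 79 libraries (left) and the 36 (right). Red blocks along the diagonal are genes of 1 cluster (median r 0.61 and 0.55), and the red block between the HoxB middle genes and HoxD on the left (Hoxb7 with Hoxd8, 0.92) is absent on the right (-0.14).

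Most non-coding genes inside the clusters that could be tested went with a Hox gene beside them. Of 49 such genes 9 reached a mean of 1 TPM and were tested. They formed 20 pairs with a tested Hox gene whose start lay within 20 kb, and 19 of these passed with positive r among the 79 libraries (18 without W1154), against 54.5% of all pairs of a Hox gene with any gene. In the 36 libraries 16 of the 20 passed, against 1.99%, and 9 without the 4 libraries low in Chga, against 0.0265%. The pair that did not pass among the 79 was Hoxb9 with Hoxb5os (r = 0.07), and Hoxb13 with Gm27605 (r = 0.25) lost its call without W1154. Hoxa11os, transcribed opposite to Hoxa11, had a median of 16.7 TPM over all libraries, above the 2.84 TPM of Hoxa11, and r between them was 0.81 among the 79 libraries and 0.92 among the 36 (adjusted permutation p = 4.14e-05 among the 79). These genes share 34.98% of the exon bases of Hoxa11, and since nothing states that the library kit marks strand, their reads cannot be told apart there. 9530018H14Rik, next to Hoxa13, had a median of 1.17 TPM and r = 0.92 and 0.95 with Hoxa13. Near Hoxb13, Gm11535 had a median of 1.85 TPM and r = 0.71 and 0.83 with Hoxb13. Hoxd3os1, antisense to the middle of HoxD, had a median of 2.89 TPM and r = 0.88 and 0.61 with Hoxd8, the latter not past the threshold without the 4 libraries low in Chga (adjusted permutation p = 0.0887). With Hoxd4, Hoxd9 and Hoxd10, its r among the 36 was 0.45, 0.31 and 0.17, and none of these passed. Hoxb5os had r = 0.90 and 0.92 with Hoxb7. Its r with Hoxb9 among the 36 was 0.97, but 0.57 without the 2 libraries farthest from the Hoxb9 median. The non-coding pairs were not counted again without W1065. Gm53, between Hoxb13 and Hoxb9 on the chromosome, had a median of 13.3 TPM, and over all 79 libraries together both Gm53 and Gm11535 passed with positive r against Tgm4. Hottip and Hotair, long non-coding RNAs known as regulators of Hox genes, had medians of 0.24 and 0 TPM. The genes of the cluster miRNAs Mir196a-1, Mir196a-2, Mir196b, Mir10a, Mir10b and Mir615 are listed at 0 TPM in every library. The study cut its cDNA into fragments longer than such short genes, so these zeros do not show that the miRNAs are absent. Exons are also shared by Hoxd4 with Gm28230 (39.2% of its exon bases), by Hoxb3 with Hoxb3os (52.9%) and by Hoxa7 with Hoxaas3 (20.4%), so their values are less certain. Hoxd4 further shares exon bases with Hoxd3 (13.2%) and with Hoxd3os1 (11.8%), whose r with Hoxd4 is given above. Smaller shares are found for the tested members Hoxa3, Hoxa9 and Hoxd10.

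The genes of proteins that act with Hox factors were detected beside them. Pbx and Meis proteins bind DNA together with Hox proteins, and Meis1 had a median of 13.4 TPM. All 9 cofactor genes were tested in the 79 libraries. With Mki67 8 passed with positive r (2 positive and 1 negative under median-of-ratios scaling), and with Col1a1 8 passed with positive r (4 under that scaling). Of all genes 72.8% passed with positive r against Mki67, and 56.1% passed in either direction against Col1a1. Meis2 had r = 0.71 and Pbx3 r = 0.65 with Col1a1, and Meis1 r = 0.72 with Mki67. With Tgm4 6 cofactors passed over the 79, all with negative r, against 38.8% of all genes in either direction. Among the chromatin regulators of Hox clusters, 10 of 12 passed with Mki67, all positive (6 positive and 3 negative under median-of-ratios scaling), beside the same 72.8% of all genes. Ezh2, the Polycomb methyltransferase that silences Hox genes, had r = 0.87 with Mki67, as had Cbx2, a Polycomb reader. Of the upstream signals, 4 of 7 were tested, the retinoic acid receptors Rara, Rarb and Rarg and the Hox antagonist Gmnn, and all 4 passed with Mki67 and with Col1a1 in deposited TPM (2 and 1 under median-of-ratios scaling). Of the prostate transcription factors, 3 of 4 were tested, and with Col1a1 1 passed with positive and 1 with negative r. Foxa1, the middle value of the 3, had r = -0.18 with Col1a1 (-0.52 under median-of-ratios scaling) and Sox9 r = 0.28 (0.046). In the 36 libraries the 28 tested genes of these lists gave 36 relations with the 4 markers that passed, 20 with positive and 16 with negative r, where 44.2% of all genes passed with Mki67, 58.5% with Col1a1, 33.4% with Chga and 0.0821% with Tgm4. Without the 4 libraries low in Chga 16 passed, 12 with positive and 4 with negative r. In those 32 libraries 9.53% of all genes passed with Chga, and the shares with the other markers are not given. The lower count is therefore not a result about these lists. Ezh2 had r = 0.82 with Mki67 among the 36. Evx1 and Evx2, homeobox genes at the 5′ flank of HoxA and HoxD, were below a mean of 1 TPM.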

How the data were processed

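Total RNA of (TRAMP x WSB) F2 prostates was depleted of ribosomal RNA and made into libraries with a TruSeq RNA v2 kit. After trimming, the authors aligned reads with Bowtie2 2.2.5 to a transcriptome that held both C57BL/6 and WSB alleles, estimated levels with RSEM 1.2.20 and deposited TPM per gene and library. CASAVA 1.8.2 is also named in the submitters' processing notes, and the annotation is not given in the sources used here. Gene IDs were matched to GENCODE M21 on GRCm38 (45136 of 45699). TPM keeps no depth, and the depth of each library is not given in the sources used here, so the precision from counting is unknown and no count model was used. The members and lists were chosen with earlier results of these data known. Values of a few genes are not reported here.

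All libraries form 1 group, so no groups were compared. The study's text gives a smaller number of prostates than the labels, which do not say which were used, and all labelled libraries were kept. Parts were formed on the first principal component of log2(TPM + 1), with a mixture of 2 normal distributions (fall in BIC over 10, Ashman D over 2, at least 6 libraries each). The permutation test of r was two-sided and used 100000 permutations, a pseudocount of 1 and genes whose mean reached 1 TPM, with Benjamini-Hochberg adjustment over all genes. Marker relations were 16 members by 4 markers in each part. Nothing says that libraries share more than the cross. Each p-value gives how often shuffled libraries reached an r at least as far from 0. This takes the libraries as exchangeable, which the labels cannot show. Genes were named by level, by the 3 largest and 3 smallest r per marker among those past the threshold, and by the 3 largest r between members, and the others named were chosen after their values were seen. Alternatives were a pseudocount of 0.1, median-of-ratios scaling, rescaling without the 20 genes of largest share, Spearman's rho, removal of 3 components, no filter and sets of libraries left out. Scripts were tested on simulated data. The scripts ran on Python 3.11.15 with scikit-learn 1.9.0, numpy 2.4.6, scipy 1.17.1, pandas 2.3.3 and, for figures, matplotlib 3.10.9.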

Additional observations from a re-analysis of the deposited data

How the results depend on the processing

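No paired analysis was possible because the labels give 1 group, with nothing to pair. Counts below are members past the threshold, with the value as reported in brackets, and the cause of each shift was not tested. Each marker count is of 16 members, or with no filter of 38 among the 79 and 39 among the 36. Shares of all genes are not given for most settings, so a shift cannot be read as particular to the Hox genes. With Mki67 among the 79, the median r over all genes was 0.43 as reported. It was -0.02 with median-of-ratios scaling and -0.03 with 3 components removed. Detected Hox genes (12 of 39) were 27 at 0.1 TPM, 4 at 5 TPM, 3 at 90% of libraries and 21 after rescaling without the 20 genes of largest share. Of all protein-coding genes (53.1%) the shares were 68.9%, 33.8%, 41.99% and 61.01% in the same order. Among the 79 libraries, Chga (3) gave 0 with 3 components removed, 0 with median-of-ratios scaling, 5 with no filter, and 0 within the lower and 0 within the upper Chga libraries. Mki67 (6 positive, 1 negative) gave 0 with 3 components removed, 7 negative with median-of-ratios scaling, 5 with a pseudocount of 0.1 and 5 (1 positive, 4 negative) after rescaling. Tgm4 (4 positive, 2 negative) gave 6 positive with 3 components removed, 8 (2 positive, 6 negative) by Spearman's rho, 13 with no filter, 7 (6 positive, 1 negative) with a pseudocount of 0.1, 0 within the lower and 3 within the upper libraries, and 6 (2 positive, 4 negative) without W1154. Col1a1 (12) gave 4 (1 positive, 3 negative) with 3 components removed, 9 (5 positive, 4 negative) with median-of-ratios scaling and 27 with no filter, which tests more genes. Pairs of members (76) were 61 (51 positive, 10 negative) with median-of-ratios scaling and 65 (54 positive, 11 negative) with 3 components removed. Marker lists (87 positive, 6 negative) gave 87 positive and 18 negative without W1154, and cofactor lists (63) gave 21 with 3 components removed, 46 (24 positive, 22 negative) with median-of-ratios scaling and 50 (33 positive, 17 negative) after rescaling. Among the 36 libraries, Chga (4) gave 3 with 3 components removed, 1 by Spearman's rho, and 0 within the upper libraries and without the 4 low in Chga. Mki67 (1) gave 4 by Spearman's rho, 2 with median-of-ratios scaling, 7 with no filter, 2 with a pseudocount of 0.1, 1 positive after rescaling and 4 without W1065. Col1a1 (1 negative) gave 0 with 3 components removed, 4 positive by Spearman's rho, 6 with no filter, 4 with a pseudocount of 0.1, 3 after rescaling, 3 without W1065 and 1 positive without the 4 low in Chga. Pairs (23) were 20 (18 positive, 2 negative) with a pseudocount of 0.1, 19 with median-of-ratios scaling and 18 with 3 components removed. They were 13 without the 4 low in Chga and 27 (19 positive, 8 negative) without W1065. Marker lists (5 positive, 6 negative) gave 20 (19 positive, 1 negative) by Spearman's rho and 4, all positive, without the 4 low in Chga, and cofactor lists (36) gave 11 with 3 components removed and 16 without the 4. The sign of r turned as follows. Among the 79 libraries Hoxa11 with Chga was at -0.86 within the upper libraries, and Hoxa3 with Chga at -0.039 with 3 components removed and -0.095 within the upper libraries. With Mki67 and 3 components removed, r was -0.026 for Hoxa13, -0.16 for Hoxa9, -0.060 for Hoxa10, -0.093 for Hoxa11, -0.10 for Hoxa7 and 0.26 for Hoxb9. With median-of-ratios scaling it was -0.15 for Hoxa11 and -0.18 for Hoxa7, and after rescaling -0.012 for Hoxa7. With Tgm4, Hoxd13 was at -0.0082 by Spearman's rho and -0.065 within the upper libraries, and Hoxd4 at 0.036 with 3 components removed. With Col1a1, Hoxa13 was at -0.10 with 3 components removed and -0.088 with median-of-ratios scaling, and Hoxb9 at 0.20 with 3 components removed. Among the 36, Hoxb13 with Chga was at -0.018 within the upper libraries and -0.018 without the 4, and Hoxd13 with Mki67 at 0.052 with 3 components removed. Of the other values of single members, 59 kept the sign but lost the call and the rest kept both. Leaving out W7822 and W78022, since these labels differ by 1 digit, or forming the parts with all genes, changed none of these counts by over 1.5 times. The depth of single libraries is unknown, so values near 0 TPM are the least certain.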

Other observations

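The genes most like the 3 Hox genes with the highest medians were sought over the 79 libraries by Pearson's r. For Hoxb13 they were Sel1l3 (r = 0.90), Tspan1 (0.90), 5330417C22Rik (0.88), Slc7a4 (0.87) and Fam174b (0.86). Without W1154 the list for Hoxb13 was Tmem183a (0.86), Spdef (0.85), Fam174b (0.84), Paip2b and Edem2, so only Fam174b stood in both. Spdef is a transcription factor of secretory epithelia. For Hoxa9 they were Arvcf (0.90), Dapk1 (0.90), Plcb3 (0.89), Vps72 and Rnf180, and without W1154 Pheta1 (0.89) stood first in the list for Hoxa9, with 4 of the 5 genes shared. For Hoxa10 they were Dapk1 (0.89), Plcb3, Gclm, Vps26b and Vopp1, and without W1154 G3bp1 (0.90), Pheta1 (0.89), Rfwd3, Taf6 and a gene with no symbol in the annotation, so 0 of 5 were shared.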
